A study of Sus scrofa with 220 samples.

Results

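Amino acid transporters of 8 solute carrier (SLC) families were followed across the early lineages of the pig embryo. The genes were taken by symbol, as those of the SLC1, SLC3, SLC6, SLC7, SLC16, SLC36, SLC38 and SLC43 families, and had to exceed a TPM of 1 (a level corrected for gene length and for depth) in at least 3 of the 220 cells. Of 59 matching symbols 46 were kept, among 14721 genes over the same limit and 22840 gene entries in all. The kept genes were 5 of 7 in SLC1, 2 of 2 in SLC3, 9 of 15 in SLC6, 7 of 10 in SLC7, 12 of 13 in SLC16, 1 of 2 in SLC36, 9 of 9 in SLC38 and 1 of 1 in SLC43. Just inside the limit were SLC6A12 and SLC6A13 with 3 cells each, and SLC1A2 and SLC6A19, with 2 cells each, were among those just outside it. Of the other genes left out, SLC1A7, SLC36A4, SLC6A14 and SLC6A2 passed TPM 1 in 1 cell, and SLC6A17, SLC6A18, SLC6A7, SLC7A10, SLC7A13 and SLC7A14 in 0 cells. SLC7A5, SLC7A6, SLC7A11 and SLC16A1 had no matching symbol and were not analysed here.

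Single cells were sequenced with Smart-seq2 from embryos of crossbred Large White and Landrace sows, conceived by artificial insemination and flushed from the uterus, and the labels name no treatment. The groups were morula (M, 47 cells, 46 of them from 8 embryos), inner cell mass (ICM, 24 cells, 7 embryos) and trophectoderm (TE, 28 cells, 10 embryos) of the early blastocyst (EB), epiblast (EPI, 25 cells, 4 embryos) and hypoblast (HYPO, 36 cells, 5 embryos) of the late blastocyst (LB), and EPI (48 cells, 4 embryos) and HYPO (12 cells, 3 embryos) of the spherical embryo (Sph). TE was removed from LB embryos by immunosurgery and was not collected at LB or Sph, and EPI and HYPO of Sph embryos were separated by hand. Cells held 1012604 to 5696373 counts on genes, with a median of 2006854. The paper inferred the sex of each cell from Y chromosome expression. By its table both sexes were present but unevenly spread, with only male cells in Sph HYPO and mostly female cells in LB HYPO. Sex entered no fit here, and its part in the results was not tested.

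Amino acid transporters work as exchangers, ion-driven importers or facilitators, and most of the SLC7 light chains reach the cell surface only when paired with a heavy chain of the SLC3 family. SLC3A1 pairs with SLC7A9 to take up cystine and cationic amino acids, a pair known from the kidney and intestine. SLC3A2 (CD98) pairs with SLC7A7, which exchanges cationic for neutral amino acids, and with SLC7A8, which exchanges neutral ones. In the preimplantation embryo, transported amino acids serve protein synthesis, osmotic balance and signalling to growth control. Several SLC6 genes carry creatine, taurine or neurotransmitters instead, and most SLC16 genes are monocarboxylate transporters.

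The labels were checked against marker genes. The summed TPM of 4 EPI markers (PRDM14, NODAL, SFRP2 and SALL2) was 92.2 to 241 in LB EPI and 145 to 240 in Sph EPI, against 0 to 5.32 in LB HYPO and 0 to 174 in Sph HYPO. The summed TPM of 5 HYPO markers (PDGFRA, GATA4, GATA6, NID2 and FN1) was 784 to 2913 in LB HYPO and 1135 to 3368 in Sph HYPO, against 11.2 to 73.9 in LB EPI and 11 to 25.3 in Sph EPI, and GATA4 had 0 counts in either EPI group. In Sph HYPO the EPI sum came from NODAL (484 counts), with at most 1 count for each of the other 3 genes. The summed TPM of 3 M and ICM markers (KLF4, KLF17 and ESRRB) was 180 to 500 in M and 145 to 790 in ICM. TE had 15.6 to 725, with a median of 94.2, and overlapped both. LB EPI had 94.5 to 135, and the other groups at most 20.1. Mean KLF17 was 91.3 TPM in ICM, 83.8 in TE and 93.2 in LB EPI. The summed TPM of 5 TE markers (GATA2, GATA3, DAB2, KRT8 and KRT18) had a median of 42614 in TE embryos, against 177 to 562 in ICM, 804 to 5788 in M, 1508 to 9001 over the LB EPI, LB HYPO and Sph EPI embryos, and 17302 to 43066 in Sph HYPO, which overlapped TE. KRT8 made most of that sum, with a mean of 25232.5 TPM in Sph HYPO and 25947.5 in TE. The other TE markers had lower means in Sph HYPO than in TE. They were GATA2 (0.00717 against 132 TPM), GATA3 (24.8 against 110), DAB2 (178 against 1527) and KRT18 (4097 against 10676). In TE itself 1 library stood against its label. The TE embryo E6-ER, a single cell, had 0 counts of GATA2, GATA3, DAB2 and KRT8 and 1 count of KRT18, so TE means with an SD and fold changes against TE are given with and without it. The embryo was read from the letters of a cell's identifier, and 6 of the 41 sums of an embryo and group rest on 1 cell.

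Levels between genes are compared in TPM, averaged first over the cells of an embryo and then over embryos. SLC3A2 had the highest mean over the 7 groups (344 TPM), followed by SLC7A9 (225), SLC7A3 (193), SLC6A8 (170), SLC3A1 (159), SLC7A8 (136), SLC7A7 (94.3), SLC1A1 (73.4), SLC38A2 (52.2) and SLC1A5 (43). The heavy chains and their light chains thus held 5 of the 7 highest places. The highest mean TPM of SLC43, SLC36 and SLC16 was that of SLC43A2 (20), SLC36A2 (1.07) and SLC16A6 (7.83). A mean of at least 10 TPM was reached by 17 genes, while 27 stayed under 5 and 13 under 1. TPM passed 1 in at least 110 cells for 9 genes and in fewer than 20 cells for 22 genes. The group of the highest mean was Sph EPI for 14 genes, LB HYPO and Sph HYPO for 9 each, LB EPI for 5, TE for 4, M for 3 and ICM for 2.

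**Figure D1:**
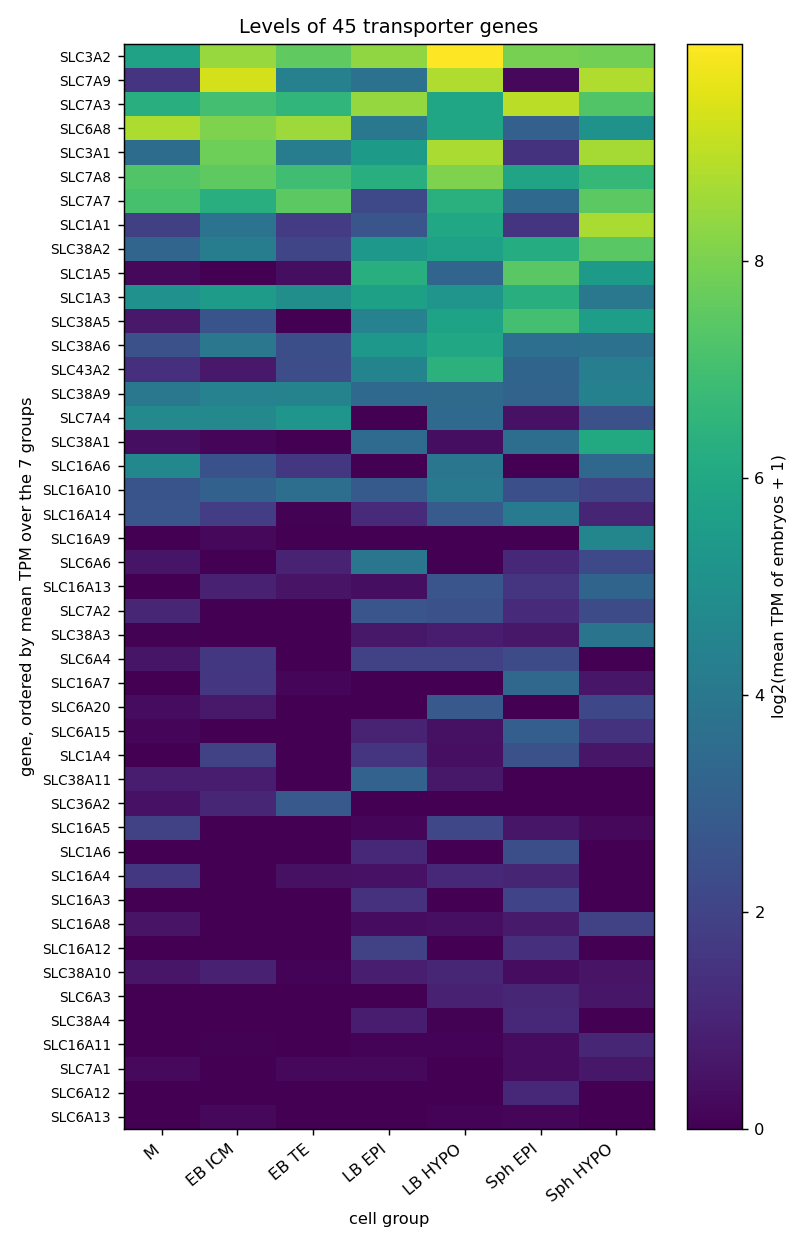
Colour gives log2(mean TPM + 1) of the embryos of each cell group (columns) for 45 transporter genes (rows), ordered by their mean TPM over the 7 groups. SLC7A9 and SLC3A1 are bright in ICM and in LB and Sph HYPO and dark in Sph EPI, SLC1A5 is dark in M, ICM and TE, and the lower part of the map holds genes under 1 TPM in most groups.

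Groups were compared on counts summed over the cells of each embryo, with the quasi-likelihood test of edgeR, and a gene was called at a Benjamini-Hochberg adjusted p under 0.05 over all 14721 genes. Calls are those of this standard fit (all embryos of the groups compared, no block) unless another setting is named. Log2 fold changes (with standard error, SE) are positive where the group named first is higher, and levels per embryo are CPM, the counts of a sum scaled to its depth by TMM. P-values measure the spread between these sums. Between EPI and HYPO of LB, 4 of the 46 transporters (8.70%) were called against 1.92% of all genes, SLC7A7, SLC3A2, SLC3A1 and SLC16A6. All 4 were lower in EPI, where 1.03% of all genes were called lower. At Sph, 2 (4.35%) were called against 1.13% of all genes, SLC7A9 and SLC7A7, both lower in EPI like 0.571% of all genes.

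Between stages, the largest number of calls was 3, reached in each of 2 comparisons. M against ICM gave SLC3A2, SLC7A9 and SLC3A1, all lower in M, against 2.45% of all genes called and 1.48% called lower. ICM against LB EPI gave 3, SLC7A7 and SLC7A4 higher and SLC1A5 lower in ICM, against 2.91% of all genes called, 1.12% higher and 1.79% lower in ICM. ICM against LB HYPO gave 2, SLC3A2 and SLC1A5, both lower in ICM, against 2.1% of all genes called and 1.16% called lower.

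No transporter was called by edgeR in the other comparisons. For ICM against TE, 0 were called against 0.754% of all genes. At an unadjusted p under 0.05 were 17 of the 46 transporters and 2783 of the 14721 genes. DESeq2, a second count test, called 4 transporters, and its share over all genes is not given here or below. Without embryo E6-ER, SLC7A9, SLC3A1 and SLC7A7 were called, and SLC3A1 without TE embryo AH. For M against TE, 0 were called against 0.808% of all genes. At an unadjusted p under 0.05 were 15 transporters and 3075 of all genes. DESeq2 called 2, and SLC3A2 was called without E6-ER. For LB EPI against Sph EPI, 0 were called against 0.156% of all genes. At an unadjusted p under 0.05 were 8 transporters and 1999 of all genes. DESeq2 called 4, and SLC38A5 was called without LB EPI embryo AN. For LB HYPO against Sph HYPO, 0 were called against 0.163% of all genes. At an unadjusted p under 0.05 were 11 transporters and 1402 of all genes, and DESeq2 called 2. In that comparison SLC1A1 was called without LB HYPO embryo AP, and SLC3A2 without Sph HYPO embryo F.

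Transporters whose CPM did not overlap between the groups were counted as well, without a test. For LB EPI against LB HYPO there were 8 such transporters (17.4%) against 8.59% of all genes, 7 of them lower in EPI. For Sph EPI against Sph HYPO there were 11 (23.9%) against 15.2% of all genes, 6 of them lower in EPI. The numbers were 1 for ICM against TE (0.353% of all genes), 3 for M against ICM (1.66%), 0 for M against TE (0.394%), 5 for ICM against LB EPI (6.13%), 4 for ICM against LB HYPO (3.72%), 4 for LB EPI against Sph EPI (8.28%) and 4 for LB HYPO against Sph HYPO (5.74%). The median log2 fold change of EPI against HYPO was -0.64 for the 46 transporters and 0.00 for all genes at LB, and -0.20 against 0.57 at Sph. It was -0.22 against 0.02 for M against ICM, -0.11 against -0.11 for ICM against LB EPI and -0.73 against 0.00 for ICM against LB HYPO, and -0.09 and -0.49 for the transporters of M against ICM and ICM against LB HYPO where genes without a count in 1 group were set to a limit of 3 counts.

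SLC3A1 and SLC7A9, heavy and light chain of the cystine transporter, were found together in ICM and HYPO. SLC7A9 rose from M to ICM, from 259 counts over all M sums to 42951, and was at 14 counts over all Sph EPI sums against 10106 in Sph HYPO. Mean SLC7A9 was 651 ± 768 TPM (SD, n = 7 embryos) in ICM, 443 ± 124 (n = 5) in LB HYPO and 446 ± 118 (n = 3) in Sph HYPO. It was 1.83 ± 3.82 TPM (n = 8) in M, 19.5 ± 55.5 (n = 10) in TE (2.01 ± 4.8, n = 9, without E6-ER), 12.5 ± 24.9 (n = 4) in LB EPI and 0.167 ± 0.258 (n = 4) in Sph EPI.

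In CPM, SLC7A9 had a lowest, median and highest ICM embryo of 143, 338 and 2321. The M embryos had 0, 0.112 and 11.2, and the TE embryos 0, 0.214 and 122. ICM thus stood above M and TE without overlap. SLC7A9 was lower in M than in ICM (log2 fold change -8.40, SE 1.27, adjusted p = 0.00104 from edgeR). ICM against TE gave 5.47 (SE 1.38, adjusted p = 0.0647 from edgeR), which was not called. The highest TE embryo was E6-ER, and without it the value was 7.75 with an adjusted p of 0.00183 from edgeR. When embryos were blocked, a fit that compares ICM and TE of the 7 embryos that gave both, SLC7A9 was called (log2 fold change 9.71, SE 0.996, adjusted p = 0.000339 from edgeR).

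The LB EPI embryos had 0, 0.0588, 0.244 and 65 CPM of SLC7A9, and the LB HYPO embryos 284, 326, 418, 636 and 675. The groups did not overlap, but 1 EPI embryo, AO, stood far above the other 3. The comparison gave -4.87 (SE 1.75, adjusted p = 0.207 from edgeR), and -12.78 without AO (adjusted p = 8.93e-05 from edgeR). The counts of AO came, all but 1, from 2 of its 5 cells, at 136 and 113 TPM of SLC7A9. Their summed TPM of the 5 HYPO markers was 71.9 and 65.7, against 0 to 93.7 with a median of 22.7 over the 25 LB EPI cells, and that of the 4 EPI markers was 183 and 98.7, against a median of 128. The part of such cells in the result was not tested. The same embryo weighed on ICM against LB EPI, with 5.26 (SE 1.79, adjusted p = 0.13 from edgeR) and 13.12 without AO (adjusted p = 0.000361 from edgeR).

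The Sph EPI embryos had 0, 0.0417, 0.0488 and 0.352 CPM of SLC7A9 and the Sph HYPO embryos 398, 434 and 589. This was the largest fitted fold change among the calls with over 3 counts in both groups (log2 fold change -11.83, SE 1.08, adjusted p = 0.000639 from edgeR), and it held without each embryo in turn and when embryos were blocked (adjusted p = 0.00158 from edgeR). In Sph EPI, SLC7A9 passed TPM 1 in 2 of 48 cells, both of embryo C, and 1 of them, at 5.72 TPM, had a summed TPM of 27.1 for the HYPO markers and 3.86 for the EPI markers. SLC7A9 was not called in M against TE (log2 fold change -2.91, SE 1.82, adjusted p = 0.441 from edgeR, and -0.56 with an adjusted p of 1 without E6-ER), ICM against LB HYPO (0.50, SE 0.59, adjusted p = 0.79), LB EPI against Sph EPI (7.18, SE 2.81, adjusted p = 0.359) or LB HYPO against Sph HYPO (-0.11, SE 0.39, adjusted p = 1).

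SLC3A1 was spread more widely than its light chain. Mean SLC3A1 was 219 ± 130 TPM (SD, n = 7) in ICM, 425 ± 142 (n = 5) in LB HYPO and 398 ± 195 (n = 3) in Sph HYPO, against 10.4 ± 9.44 (n = 8) in M, 17.9 ± 24.5 (n = 10) in TE (19.9 ± 25.1, n = 9, without E6-ER), 43.2 ± 35.2 (n = 4) in LB EPI and 1.72 ± 2.21 (n = 4) in Sph EPI. The M embryos had 0, 19.95 and 36.4 CPM (lowest, median and highest) and the ICM embryos 54, 289 and 654. Each ICM embryo was above each M embryo (log2 fold change -4.41 for M against ICM, SE 1.10, adjusted p = 0.0379 from edgeR). This call was close to the threshold, and it was lost without any 1 of ICM embryos AA, AC, AF, AG or AI or M embryos ER, T, U or X (adjusted p from 0.0504 to 0.0737).

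The LB EPI embryos had 5.19, 32.5, 73.7 and 103 CPM of SLC3A1 and the LB HYPO embryos 234, 700.9, 727, 744 and 931. EPI was lower without overlap (log2 fold change -3.66, SE 0.73, adjusted p = 0.0225 from edgeR, and 0.0371 when embryos were blocked). The call was lost without LB EPI embryo AN (adjusted p = 0.0506) or AP (adjusted p = 0.0744). In Sph the EPI embryos had 0, 0, 5.12 and 11.4 CPM and the HYPO embryos 285, 784 and 859, again without overlap. That difference was not called in the unblocked fit (log2 fold change -7.27, SE 1.78, adjusted p = 0.0898 from edgeR) and was called when embryos were blocked (-11.81, adjusted p = 0.0489 from edgeR) and without Sph EPI embryo F (-6.89, adjusted p = 0.047). ICM against TE gave 3.50 (SE 0.93, adjusted p = 0.0829 from edgeR) and 3.35 without E6-ER, where it was called (adjusted p = 0.0412).

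Detection of the pair was then counted in single cells. SLC3A1 and SLC7A9 were both above TPM 1 in 36 of 36 LB HYPO cells (exact Clopper-Pearson 95% interval 90.3 to 100%), 12 of 12 Sph HYPO cells (73.5 to 100%) and 20 of 24 ICM cells (62.6 to 95.3%). The other 4 ICM cells had SLC3A1 alone. SLC3A1 passed in every cell of these groups, so the shares with both are those of SLC7A9 and give no test of pairing. SLC7A7 and SLC7A9, both light chains, gave similar numbers. They passed together in 33 of 36 LB HYPO, 12 of 12 Sph HYPO and 20 of 24 ICM cells. Both passed in 1 of 47 M cells (0.0539 to 11.3%), 2 of 28 TE cells (0.877 to 23.5%), 2 of 25 LB EPI cells (0.984 to 26%) and 1 of 48 Sph EPI cells (0.0527 to 11.1%). SLC3A1 alone was found in 17 M, 10 TE, 7 LB EPI and 3 Sph EPI cells, and SLC7A9 alone in 4 M, 3 TE and 1 Sph EPI cell. Intervals cover counting error only, and cells of an embryo are not independent.

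**Figure D2:**
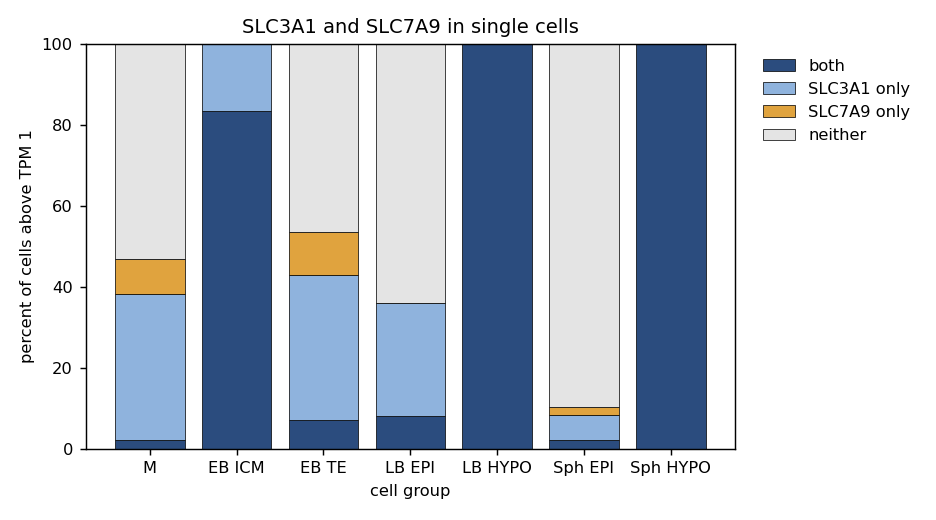
Bars give the percent of cells of each group with SLC3A1 and SLC7A9 both above TPM 1, with only 1 of them, or with neither. Both genes pass in all 36 LB HYPO and all 12 Sph HYPO cells and in 20 of 24 ICM cells, and SLC3A1 alone is the more frequent single gene in M, TE and LB EPI.

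SLC3A2, the CD98 heavy chain, was found in nearly every cell, and its level rose from M to ICM and was highest in LB HYPO. It passed TPM 1 in 219 of 220 cells. Mean SLC3A2 was 52.6 ± 29.9 TPM (SD, n = 8) in M, 348 ± 74.1 (n = 7) in ICM, 190 ± 118 (n = 10) in TE (208 ± 109, n = 9, without E6-ER), 322 ± 87 (n = 4) in LB EPI, 1021 ± 305 (n = 5) in LB HYPO, 243 ± 25.4 (n = 4) in Sph EPI and 234 ± 78.1 (n = 3) in Sph HYPO. M embryos had 20.9, 54.2 and 103 CPM (lowest, median and highest) and ICM embryos 256, 379 and 518. The gap between M and ICM was a call in each of 23 alternative analyses (log2 fold change -2.78, SE 0.32, adjusted p = 7.93e-05 from edgeR). The TE embryos had 20.4, 189 and 504.7 CPM and overlapped both. M against TE gave -1.85 (SE 0.50, adjusted p = 0.0726 from edgeR), called without E6-ER (-1.99, adjusted p = 0.0127), and ICM against TE gave 0.86 (SE 0.44, adjusted p = 0.311) and 0.72 without E6-ER (adjusted p = 0.241).

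The LB EPI embryos had 242, 366, 377 and 488 CPM of SLC3A2 and the LB HYPO embryos 780, 981, 1175, 1255 and 1542. EPI was lower without overlap (log2 fold change -1.68, SE 0.28, adjusted p = 0.00895 from edgeR), though not called when embryos were blocked (-1.83, adjusted p = 0.0727 from edgeR). ICM was lower than LB HYPO too (-1.54, SE 0.23, adjusted p = 0.00132 from edgeR), while ICM against LB EPI gave 0.05 (SE 0.29, adjusted p = 1). In Sph the EPI embryos had 262, 277, 295 and 376 CPM and the HYPO embryos 189, 268 and 426, and the groups overlapped (log2 fold change 0.06, SE 0.41, adjusted p = 1 from edgeR, with a median of 0.57 over all genes). The sign of that value changed between settings, to -0.08 with DESeq2. LB HYPO was above Sph HYPO without overlap, but the difference was not called (1.91, SE 0.38, adjusted p = 0.07 from edgeR). It was called without Sph HYPO embryo F (2.27, adjusted p = 0.0216), without TMM (adjusted p = 0.0393) and by DESeq2 (adjusted p = 0.00863). LB EPI against Sph EPI gave 0.35 (SE 0.27, adjusted p = 0.644).

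**Figure D3:**
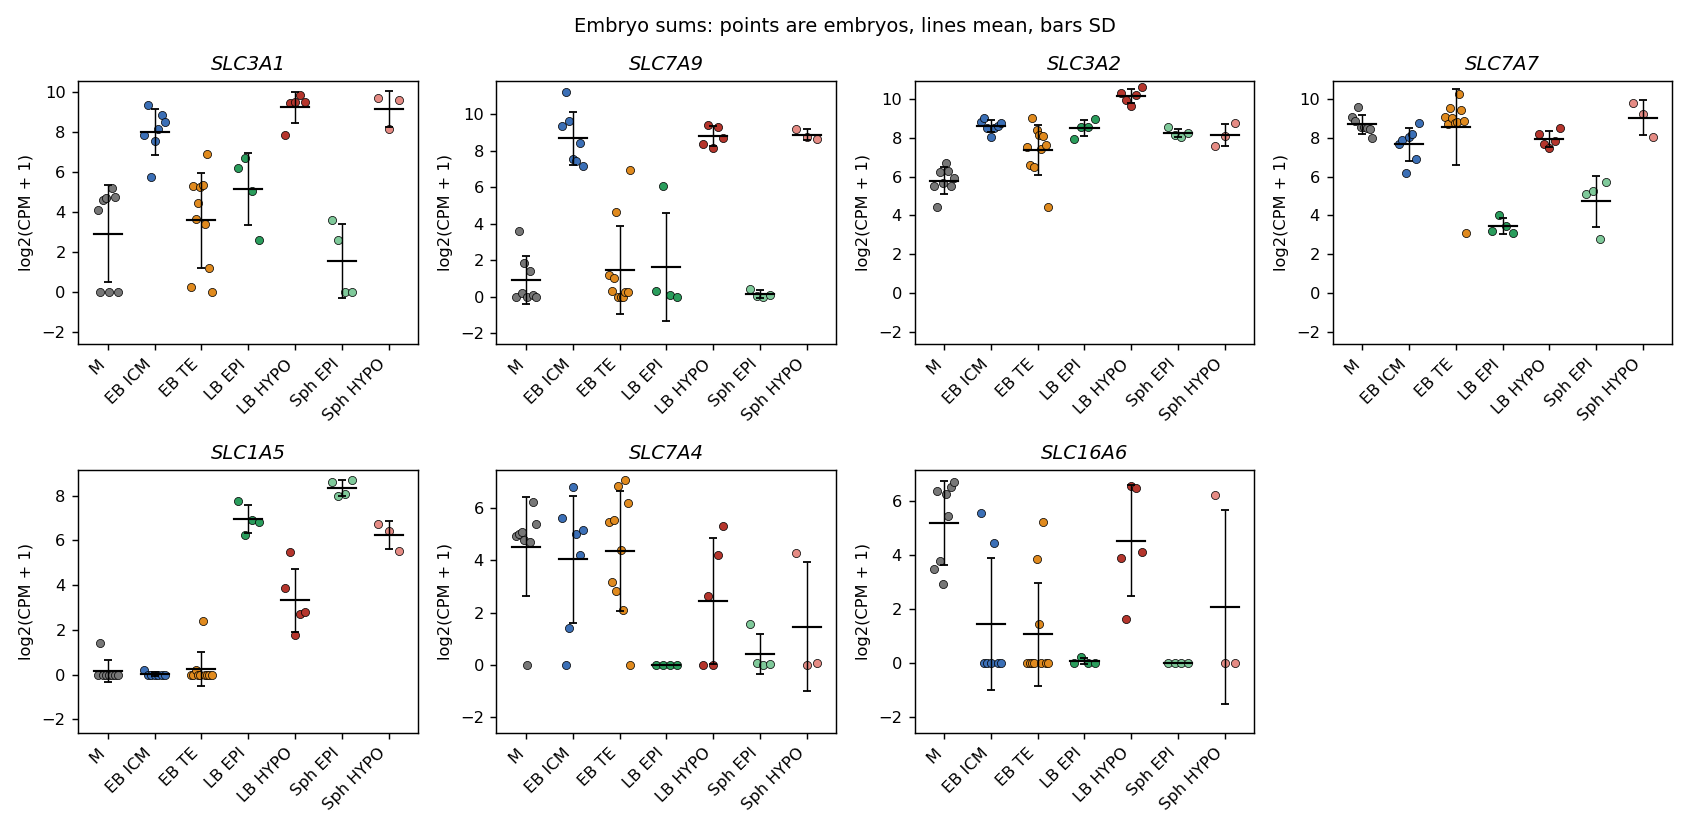
Points give log2(CPM + 1) of each embryo in each group for the 7 transporters called in at least 1 comparison, with the mean as a line and the SD as a bar (n = 3 to 10 embryos). SLC7A9 and SLC3A1 are high in ICM, LB HYPO and Sph HYPO, SLC7A7 is low in both EPI groups and in 1 TE embryo, and SLC1A5 is near 0 before LB.

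SLC7A7, the light chain for cationic and neutral amino acids, was lower in EPI than in any other group by mean TPM. Mean SLC7A7 was 3.59 ± 1.3 TPM (SD, n = 4) in LB EPI and 9.65 ± 5.44 (n = 4) in Sph EPI, against 134 ± 37.7 (n = 8) in M, 78.4 ± 44.4 (n = 7) in ICM, 179 ± 98.5 (n = 10) in TE (198 ± 81.5, n = 9, without E6-ER), 79.8 ± 29.8 (n = 5) in LB HYPO and 176 ± 102 (n = 3) in Sph HYPO. The LB EPI embryos had 7.6, 8.3, 9.94 and 15.2 CPM, the LB HYPO embryos 176, 200, 226, 287 and 359, and the ICM embryos 70.9, 235 and 428 (lowest, median and highest). LB EPI was below both, with -4.63 against LB HYPO (SE 0.53, adjusted p = 0.00103 from edgeR) and 4.44 for ICM against LB EPI (SE 0.62, adjusted p = 0.00101 from edgeR). Both calls held without each embryo in turn, and that of LB was not kept when embryos were blocked (-4.51, adjusted p = 0.0715 from edgeR).

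In Sph the EPI embryos had 5.87, 33.9, 37.9 and 50.9 CPM of SLC7A7 and the HYPO embryos 260, 601 and 887. EPI was lower without overlap (log2 fold change -4.17, SE 0.71, adjusted p = 0.0187 from edgeR). The call was lost without the EPI sum (adjusted p = 0.0525) or the HYPO sum (adjusted p = 0.0571) of embryo C and when embryos were blocked (-4.58, adjusted p = 0.0777 from edgeR). SLC7A7 still passed TPM 1 in 43 of 48 Sph EPI and 19 of 25 LB EPI cells.

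The M embryos had 247, 372 and 765 CPM of SLC7A7 (lowest, median and highest) and the TE embryos 7.58, 494 and 1194. The lowest TE embryo was E6-ER, and the other 9 were at 412 or above. ICM against TE gave -1.23 (SE 0.54, adjusted p = 0.187 from edgeR) and -1.39 without E6-ER, where it was called (adjusted p = 0.0492). SLC7A7 was not called in M against ICM (0.85, SE 0.33, adjusted p = 0.133), M against TE (-0.33, SE 0.45, adjusted p = 0.859, and -0.47 with an adjusted p of 0.318 without E6-ER), ICM against LB HYPO (-0.11, SE 0.42, adjusted p = 1), LB EPI against Sph EPI (-1.55, SE 0.91, adjusted p = 0.489) or LB HYPO against Sph HYPO (-1.28, SE 0.46, adjusted p = 0.4665), all from edgeR.

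**Figure D4:**
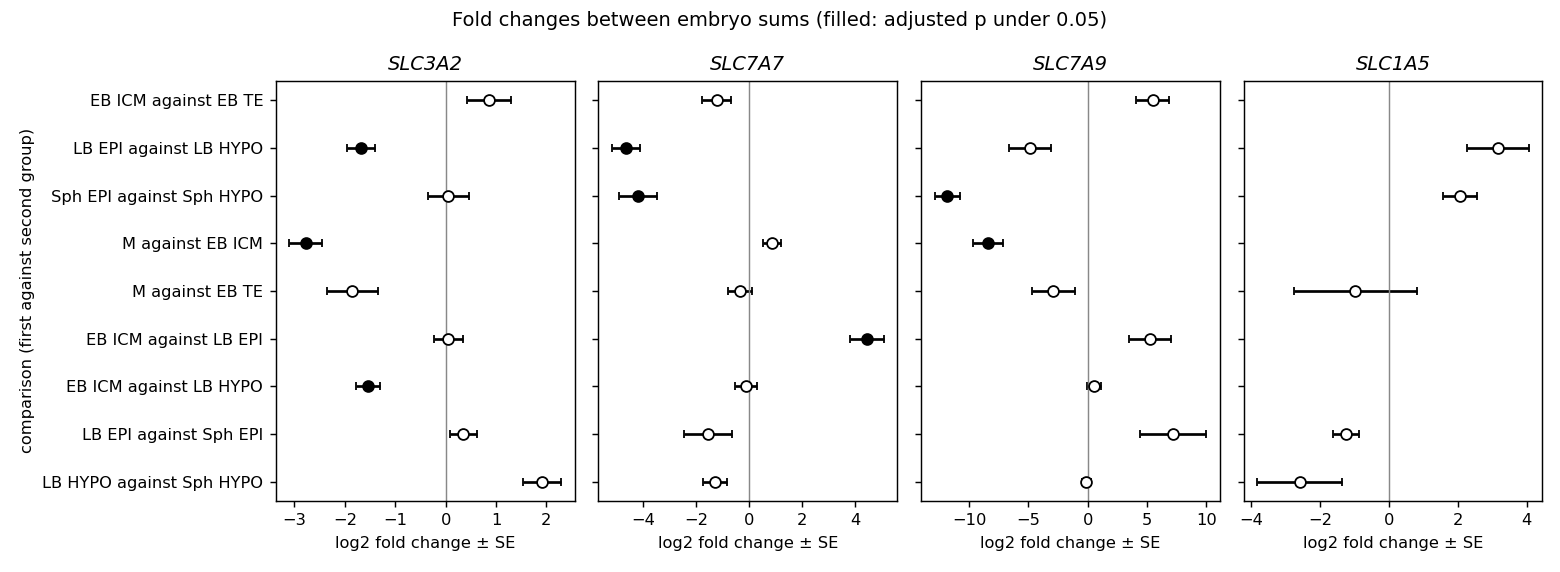
Points give the log2 fold change of the group named first against the second in edgeR, with the SE as a bar, for SLC3A2, SLC7A7, SLC7A9 and SLC1A5 in the 9 comparisons, and filled points are calls. The filled points of SLC7A7 and SLC7A9 in EPI against HYPO lie left of 0, and SLC1A5 has no point in the 4 comparisons that involve ICM, where ICM holds 2 counts.

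SLC7A8, the neutral light chain, was present alongside SLC3A2 in 217 of 220 cells and was called in no comparison of the standard fit. DESeq2 called SLC7A8 lower in LB EPI than in LB HYPO (-1.77, adjusted p = 0.0248), where the standard fit gave 0.0655 from edgeR. Its group means lay between 55.7 TPM in Sph EPI and 263 in LB HYPO. SLC3A2 and SLC7A7 were both above TPM 1 in 205 of 220 cells.

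Of the cationic amino acid transporters SLC7A1, SLC7A2, SLC7A3 and SLC7A4, only SLC7A4 was called, and SLC7A3 had the highest level. Mean SLC7A3 was 338 ± 194 TPM (SD, n = 4) in LB EPI and 501 ± 115 (n = 4) in Sph EPI, and 57.5 to 153 TPM in the other 5 groups. The Sph EPI embryos had 403, 722, 786 and 926 CPM of SLC7A3 and the Sph HYPO embryos 161, 197 and 299. These did not overlap, while the LB EPI embryos (160, 390, 501 and 852) overlapped those of LB HYPO (33, 47.5, 54.8, 120 and 222). At LB, SLC7A3 was called without LB EPI embryo AN (2.68, adjusted p = 0.0454 from edgeR) or LB HYPO embryo AM (2.85, adjusted p = 0.0402), and so was ICM against LB EPI without AN (-1.97, adjusted p = 0.03). DESeq2 called SLC7A3 at LB (adjusted p = 0.00656), at Sph (0.0292) and in ICM against LB EPI (0.0334), and limma called it at LB (0.00383). The standard fit gave 0.0914, 0.0745 and 0.0775 for these comparisons (adjusted p from edgeR). SLC7A1 and SLC7A2 stayed at or under 5.27 TPM in each group.

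SLC7A4, an orphan member of the cationic group, was found up to the early blastocyst and was at 0 in LB EPI. Its mean was 25.3 ± 14.6 TPM (SD, n = 8) in M, 25.3 ± 27.3 (n = 7) in ICM and 35.6 ± 38.4 (n = 10) in TE (39.6 ± 38.5, n = 9, without E6-ER), against 9.66 ± 13.8 (n = 5) in LB HYPO, 0.396 ± 0.773 (n = 4) in Sph EPI and 4.61 ± 7.96 (n = 3) in Sph HYPO. The ICM embryos had 0, 31.1 and 110 CPM (lowest, median and highest) and the 4 LB EPI embryos 0. The groups met at 0, since ICM embryo AC had no count. With 1888 counts in ICM and a limit of 3 counts over LB EPI, SLC7A4 in ICM was higher by at least 610-fold (edgeR, adjusted p = 0.0386). The call was lost without any 1 of ICM embryos AA, AE, AF, AG or AI or LB EPI embryos AN, AO, AP or AQ (adjusted p from 0.0577 to 0.0975), and the limit fell to 406-fold without AP and 391-fold without AQ. SLC7A4 passed TPM 1 in 0 of 25 LB EPI cells, so up to 12% of cells could have passed, and in 10 of 24 ICM cells.

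SLC1A5, the exchanger that carries glutamine and other neutral amino acids, was nearly absent up to the early blastocyst and present in EPI. It had 29 counts in all M sums, 2 in ICM and 11 in TE, against 5919 in LB EPI and 37416 in Sph EPI. Mean SLC1A5 was 76.9 ± 49.2 TPM (SD, n = 4) in LB EPI, 8.53 ± 9.14 (n = 5) in LB HYPO, 172 ± 20.7 (n = 4) in Sph EPI and 43.1 ± 17.3 (n = 3) in Sph HYPO. It passed TPM 1 in 19 of 25 LB EPI, 14 of 36 LB HYPO, 45 of 48 Sph EPI and 7 of 12 Sph HYPO cells, and in 1 of 47 M, 0 of 24 ICM and 1 of 28 TE cells. For ICM, the limit set by 0 of 24 cells is 12.5% of cells.

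The LB EPI embryos had 74.6, 114, 120 and 215 CPM of SLC1A5, the LB HYPO embryos 2.39, 5.44, 5.91, 13.6 and 43.1, and the ICM embryos 0 in 6 and 0.14 in 1. All LB sums were above all ICM sums. A counting interval of a ratio, here and below, covers only the error of counting pooled reads taken as independent. It holds no spread between embryos. LB EPI had 3052 times the ICM level (counting interval 845 to 25207, adjusted p = 5.87e-05 from edgeR), a call that held without each embryo in turn, with a ratio of at least 1485 without AA. LB HYPO had 494 times the ICM level (counting interval 136 to 4084, adjusted p = 0.0172 from edgeR), a call that was lost without ICM embryo AA (adjusted p = 0.0589) or LB HYPO embryo AM (adjusted p = 0.0776). AM held most of the LB HYPO counts. Without AM the ratio was 133 (counting interval 36.3 to 1104), below the lower end of the interval with all embryos. The ratio was 785 without LB HYPO embryo AO and at least 240 without AA.

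EPI was above HYPO in SLC1A5 without overlap at LB (log2 fold change 3.18, SE 0.89, adjusted p = 0.105 from edgeR) and at Sph (2.08, SE 0.49, adjusted p = 0.0816), where the embryos had 251, 266, 383 and 414 CPM in EPI and 45.7, 83.6 and 106 in HYPO. Neither passed the threshold, and at LB the difference was called without LB HYPO embryo AM (4.25, adjusted p = 0.0393). LB EPI was below Sph EPI without overlap (-1.24, SE 0.37, adjusted p = 0.242), and LB HYPO below Sph HYPO (-2.59, SE 1.23, adjusted p = 0.517). With so few counts, ICM against TE (adjusted p = 0.312, and 0.272 without E6-ER), M against ICM (adjusted p = 0.434) and M against TE (-0.97, SE 1.79, adjusted p = 0.942, and -1.11 with an adjusted p of 0.891 without E6-ER) were not called by edgeR, and the M counts came from embryo S and 10 of the 11 TE counts from embryo AF. SLC1A4, a related exchanger, had group means of at most 4.58 TPM.

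Among the acidic amino acid transporters, SLC1A1 had its highest mean in Sph HYPO, with 429 ± 141 TPM (SD, n = 3), against 60.3 ± 57.7 (n = 5) in LB HYPO and at most 13 in the other groups. The Sph HYPO embryos had 975, 1305 and 1798 CPM of SLC1A1 and the Sph EPI embryos 0, 0.125, 4.42 and 26.8. The groups did not overlap (log2 fold change -7.44, SE 1.67, adjusted p = 0.0714 from edgeR), and the difference was called when embryos were blocked (-8.35, SE 1.56, adjusted p = 0.0489 from edgeR), without the limit on low values (0.0416), in the last 4 of the 8 library pools (0.0172) and without Sph EPI embryo F (0.0129). LB HYPO ranged from 2.53 to 377 CPM and LB EPI from 0 to 45.5. SLC1A3, another glutamate and aspartate transporter, varied less, with group means of 14.9 to 77.2 TPM, and SLC1A6 did not exceed 4.33 TPM. None of the 3 was called in the standard fit.

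All 9 genes of the SLC38 family of neutral amino acid transporters were kept, and none was called in the standard fit. SLC38A2 had the highest mean, 71.3 ± 29.2 TPM (SD, n = 4) in Sph EPI, 174 ± 209 (n = 3) in Sph HYPO, 39.3 ± 12.3 (n = 4) in LB EPI and 51.1 ± 23.8 (n = 5) in LB HYPO, and 3.28 to 18 TPM in M, ICM and TE. The Sph HYPO embryos had 37.9, 86.5 and 561 CPM, so 1 of the 3 made most of that mean. SLC38A5 had a mean of 129 ± 21.9 TPM (n = 4) in Sph EPI and 0.00663 to 54.2 TPM elsewhere, and SLC38A1 had 65.6 ± 114 TPM (n = 3) in Sph HYPO and at most 11.3 elsewhere. SLC38A6 ranged from 4.31 to 60.6 TPM, SLC38A9, which senses arginine at the lysosome, from 8.1 to 21, and SLC38A3, SLC38A4, SLC38A10 and SLC38A11 from 0 to 13.4.

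SLC43A2, a facilitator for branched-chain and aromatic amino acids, had a mean of 85 ± 55.3 TPM (SD, n = 5) in LB HYPO and 0.622 to 21.8 TPM in the other 6 groups. Its LB HYPO embryos had 44.1, 49.7, 58.4, 121 and 149 CPM, above the 6.5, 25.2, 29.3 and 37.6 of LB EPI without overlap. SLC36A2, a proton-coupled carrier of small neutral amino acids, was found in 7 cells, with 5.98 ± 12.4 TPM (n = 10) in TE (6.65 ± 13, n = 9, without E6-ER) and 0 counts in LB and Sph. Neither gene was called in the standard fit, where SLC43A2 in ICM against LB HYPO had an adjusted p of 0.0541 from edgeR. That difference, lower in ICM, was called by DESeq2 (adjusted p = 0.0014) and limma (0.000286). In edgeR it was called without ICM embryo AF (adjusted p = 0.00328), without the limit on low values (0.045) and in the first 4 pools (0.00376). The other settings did not call it. Limma also called SLC43A2 lower in ICM than in LB EPI (0.0103).

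**Figure D5:**
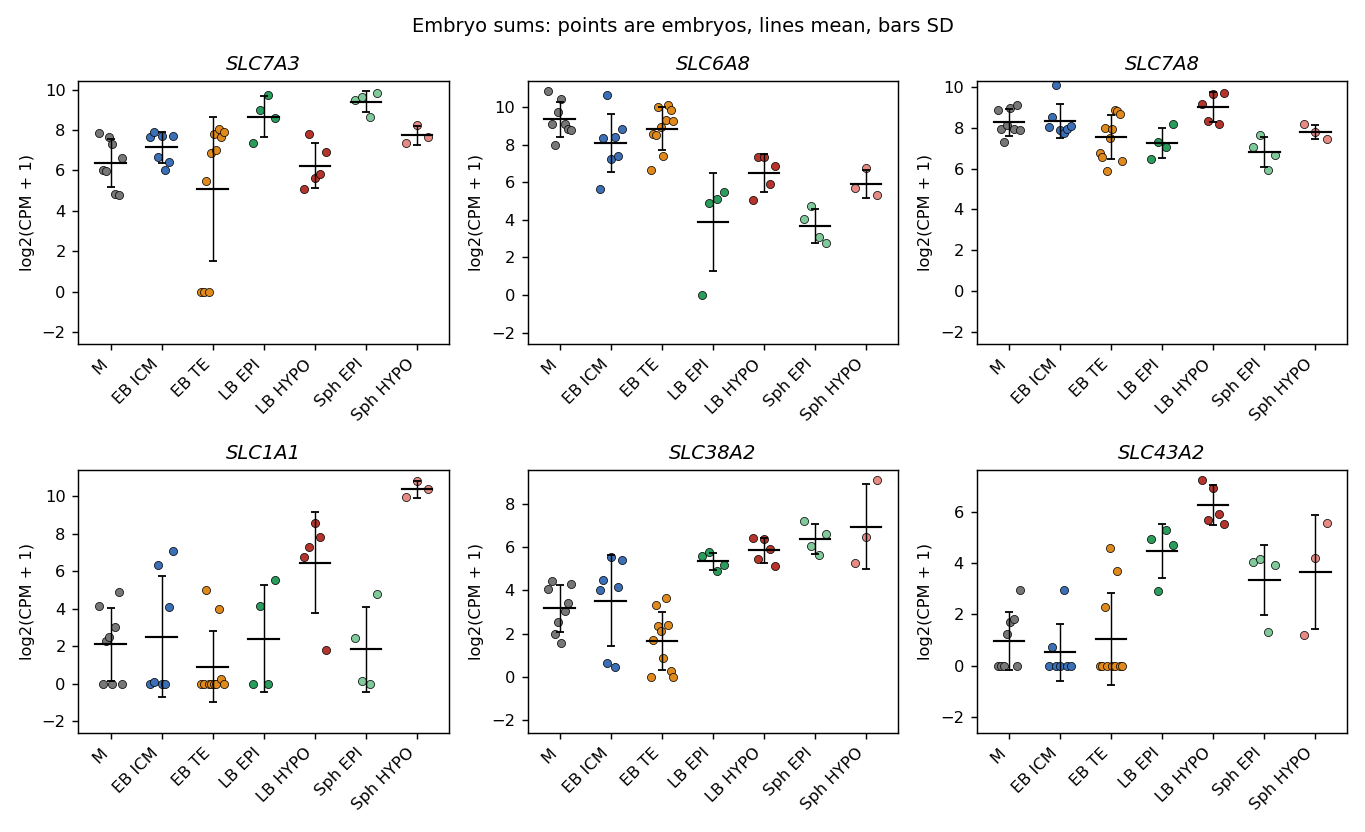
Points give log2(CPM + 1) of each embryo in each group for 6 transporters of high level that edgeR called in no comparison of the standard fit, with the mean as a line and the SD as a bar (n = 3 to 10 embryos). By group mean, SLC7A3 lies higher in EPI than in the other groups, SLC6A8 lies higher in M, ICM and TE than later, and SLC1A1 is highest in Sph HYPO. Single embryos overlap between groups for SLC7A3 and SLC6A8.

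Of the 9 SLC6 genes kept, none was called in the standard fit, though other settings called some. SLC6A8, the creatine transporter, had a mean of 438 ± 320 TPM (SD, n = 8) in M, 267 ± 316 (n = 7) in ICM and 368 ± 243 (n = 10) in TE (355 ± 255, n = 9, without E6-ER), against 14.8 ± 10.3 (n = 4) in LB EPI, 57.7 ± 30.7 (n = 5) in LB HYPO, 7.3 ± 4.73 (n = 4) in Sph EPI and 33.8 ± 17.5 (n = 3) in Sph HYPO. Its ICM embryos ranged from 48.9 to 1600 CPM and its LB EPI embryos from 0 to 44.4, without overlap. That difference was called by DESeq2 (adjusted p = 0.00435), by limma (0.0293) and by edgeR with all 7 groups in one model (0.00708). The standard fit gave an adjusted p of 0.0858 from edgeR. SLC6A6, the taurine transporter, had its highest mean in LB EPI (14.2 ± 18.4 TPM, n = 4), SLC6A15 in Sph EPI (7.01), SLC6A20, a carrier of proline, in LB HYPO (5.97), and the serotonin transporter SLC6A4 in Sph EPI (4.07). DESeq2 called SLC6A20 lower in EPI than in HYPO at LB (-7.18, adjusted p = 4.37e-07) and at Sph (-8.67, adjusted p = 0.00015). The standard fit did not (adjusted p = 0.164 and 0.19 from edgeR). SLC6A20 had only 256 counts over the LB HYPO sums and 66 over the Sph HYPO sums. SLC6A3, SLC6A12 and SLC6A13 did not exceed 1.14 TPM in any group.

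Of the 12 SLC16 genes kept, SLC16A6 was called in 1 comparison. It had 24.1 ± 20 TPM (SD, n = 8) in M, 14.3 ± 13.5 (n = 5) in LB HYPO, 0.025 ± 0.0501 (n = 4) in LB EPI and 0 in Sph EPI. In Sph HYPO it had 9.49 ± 16.4 TPM (n = 3), all from embryo C (279 counts), with 0 counts in embryos E and F. The LB EPI embryos had 0 CPM in 3 and 0.171 in 1, and the LB HYPO embryos 2.05, 13.6, 16, 89.2 and 92. With 2 counts in LB EPI and 2805 in LB HYPO, HYPO was 1098 times higher (counting interval 304 to 9069, adjusted p = 0.0287 from edgeR). The ratio was 389 (counting interval 107 to 3222) without LB HYPO embryo AO, which held most of the counts, 730 (counting interval 202 to 6027) without LB EPI embryo AP, 1819 without LB HYPO embryo AM and at least 560 without LB EPI embryo AO. Without LB EPI embryo AQ its counting interval was 195 to 5815. This call was lost without LB EPI embryo AN, AP or AQ or LB HYPO embryo AN or AO (adjusted p from 0.0647 to 0.0905) and when embryos were blocked (adjusted p = 0.256 from edgeR). It passed TPM 1 in 0 of 25 LB EPI cells and 14 of 36 LB HYPO cells, and in 0 of 48 Sph EPI cells, a limit of 6.25% of cells.

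The lactate and pyruvate carriers SLC16A3, SLC16A7 and SLC16A8 stayed low. SLC16A7 had a mean of 9.49 ± 5.73 TPM (SD, n = 4) in Sph EPI and at most 2.02 elsewhere, SLC16A3 at most 3.03 and SLC16A8 at most 2.97. SLC16A10, which carries aromatic amino acids, had means of 3.15 to 15.4 TPM. Of the remaining genes, SLC16A9 reached 23.3 ± 28.9 TPM (n = 3) in Sph HYPO and was called at Sph without HYPO embryo E (adjusted p = 0.0169 from edgeR), SLC16A14 16.1 ± 32.3 (n = 4) in Sph EPI, and SLC16A4, SLC16A5, SLC16A11, SLC16A12 and SLC16A13 at most 8.35.

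The cells were sequenced in 8 library pools, and each comparison was also fitted within the first 4 and the last 4 pools, which leaves fewer cells and embryos. The directions of all 14 calls held in both sets. SLC7A9 in Sph EPI against Sph HYPO (adjusted p = 0.00172 and 0.0008 from edgeR) and SLC3A2 in M against ICM (0.0402 and 0.00339) were called in each set. In the first pools alone the calls were SLC3A2 (-1.86, 0.0363) and SLC7A7 (-4.14, 0.0414) at LB, SLC7A7 at Sph (-4.42, 0.0251), SLC1A5 in ICM against LB EPI (0.00145) and SLC3A2 in ICM against LB HYPO (-1.53, 0.0367), and in the last pools alone SLC7A9 in M against ICM (-10.72, 0.000669) and SLC7A7 in ICM against LB EPI (4.63, 0.00737). SLC3A1 and SLC16A6 at LB, SLC3A1 in M against ICM, SLC7A4 in ICM against LB EPI and SLC1A5 in ICM against LB HYPO were called in neither (adjusted p from 0.067 to 0.448). With all 7 groups in one model, SLC3A2 (adjusted p = 0.104 from edgeR), SLC16A6 (0.155) and SLC3A1 (0.22) at LB were not called, and with limma on mean log2(TPM + 1) SLC16A6 at LB (0.124) and SLC7A4 in ICM against LB EPI (0.133) were not. With sums of at least 2 cells, SLC1A5 in ICM against LB HYPO was not called (0.0638).

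Whether EPI against HYPO differed between LB and Sph was tested as an interaction. None of the 46 transporters was called by edgeR against 0.0408% of all genes. At an unadjusted p under 0.05 were 8 transporters and 1597 of the 14721 genes, and DESeq2 called 5 transporters. The difference (Sph minus LB) was 1.66 on the log2 scale for SLC3A2 (SE 0.46, adjusted p = 0.304), -7.01 for SLC7A9 (SE 2.11, adjusted p = 0.313), -3.69 for SLC3A1 (SE 1.64, adjusted p = 0.416), -1.20 for SLC1A5 (SE 1.01, adjusted p = 0.812) and 0.38 for SLC7A7 (SE 0.79, adjusted p = 1). A call at 1 stage only, as for SLC3A2 and SLC7A9, was therefore not shown to differ between the stages.

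Genes around the transporters were taken from a list of 63, covering transporter partners, the response to amino acid shortage, amino acid enzymes and amino acid sensing, of which 36 could be tested. In EPI against HYPO, 2 of the 36 were called at LB and the same 2 at Sph, all higher in EPI, against 1.92% and 1.13% of all genes called, and DESeq2 called 7 and 3. The 2 called by edgeR were EMB, which brings monocarboxylate transporters to the cell surface, and RRAGD, a GTPase of amino acid sensing at the lysosome. The share of all genes called by DESeq2 is not given, here or for the stage comparisons below. EMB had 1805 counts in LB EPI and 1 in LB HYPO, a ratio of 2306 (counting interval 413 to 91137, adjusted p = 0.0041 from edgeR), and 4638 in Sph EPI and 0 in Sph HYPO, at least 343-fold higher (adjusted p = 0.0379). The Sph call of EMB was lost without EPI embryo C, D, E or F (adjusted p from 0.0789 to 0.149). Both calls of EMB were lost with all 7 groups in one model (adjusted p = 0.0897 at LB and 0.258 at Sph from edgeR). They were also lost within the first 4 and the last 4 pools (adjusted p from 0.084 to 0.173). RRAGD had a log2 fold change of 8.08 at LB (SE 1.46, adjusted p = 0.0128 from edgeR), and 11933 counts in Sph EPI against 1 in Sph HYPO, a ratio of 2645 (counting interval 475 to 104465, adjusted p = 0.0122). When embryos were blocked none of these 4 calls was kept (adjusted p from 0.0718 to 0.304 from edgeR).

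Between stages, 3 of the 36 were called in ICM against LB EPI, against 2.91% of all genes, and DESeq2 called 4. ARG1, an arginase, was higher in ICM (log2 fold change 9.24, SE 1.34, adjusted p = 0.00127 from edgeR), and RRAGD (-8.90, SE 1.55, adjusted p = 0.005) and PPP1R15A (-2.86, SE 0.72, adjusted p = 0.0437), a phosphatase subunit of the stress response, were lower. ICM against LB HYPO gave 2 of 36 against 2.1% of all genes (3 by DESeq2), ARG1 (3.15, SE 0.63, adjusted p = 0.0117 from edgeR) and PPP1R15A (-4.00, SE 0.56, adjusted p = 0.000536), in the same directions. That call of ARG1 was lost with all 7 groups in one model (adjusted p = 0.153 from edgeR) and within the first 4 (0.202) and last 4 pools (0.436). That of PPP1R15A was lost within the last 4 pools (0.157), and ARG1 in ICM against LB EPI within the first 4 (0.123). M against ICM gave 3 of 36 against 2.45% of all genes (9 by DESeq2), all lower in M. They were the arginase ARG2 (-1.31, SE 0.33, adjusted p = 0.0419 from edgeR), glutamate dehydrogenase GLUD1 (-2.08, SE 0.52, adjusted p = 0.0402) and PSAT1 of serine synthesis (adjusted p = 0.0402). The CPM of the groups overlapped for all 3. PSAT1 had 0 counts in M, and at least 1 ICM embryo had none either. Its 893 counts pooled over ICM, against a limit of 3 counts in M, put the pooled ICM level at least 571-fold higher. With limma PSAT1 was not called (-1.80, adjusted p = 0.262 from limma). In the other 4 comparisons 0 of 36 were called by edgeR, with 6 at an unadjusted p under 0.05 and 1 called by DESeq2 for ICM against TE, 4 and 2 for M against TE, 5 and 4 for LB EPI against Sph EPI, and 3 and 0 for LB HYPO against Sph HYPO. Of all 14721 genes, 2783, 3075, 1999 and 1402 were at that unadjusted p in these 4 comparisons.

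Several of these calls lay near the threshold and were lost when any of several single embryos was left out, with the direction kept. That of PPP1R15A in ICM against LB EPI was lost without ICM embryo AA, AC, AE, AF, AG or AI or LB EPI embryo AO or AP (adjusted p from 0.0573 to 0.17 from edgeR, log2 fold change -3.04 to -2.39). In M against ICM, ARG2 was lost without ICM embryo AC, AE, AG or AI or M embryo ER, S, T, U, V, W or X (adjusted p from 0.0555 to 0.106, log2 fold change -1.37 to -1.06), GLUD1 without ICM embryo AC, AD, AE, AG or AI or M embryo S, T, U, W, X or Y (adjusted p from 0.0524 to 0.094, log2 fold change -2.12 to -1.65), and PSAT1 without ICM embryo AA, AE or AI or any M embryo (adjusted p from 0.0526 to 0.0706).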

How the data were processed

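The authors trimmed the Smart-seq2 reads, aligned them to the pig genome with HISAT2 2.1.0 (version from the submitters' processing notes) and counted uniquely mapped reads per gene with HTSeq, and they deposited raw counts per gene and cell. The authors also deposited TPM values for the same cells, which were used for levels, for the limit on low values and for shares of cells. Cells of low depth, of high mitochondrial share or outlying had been removed before deposition. Only IDs paired with a symbol can be members, and the 11437 such IDs held 75.3% of counts.

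Counts were summed per embryo and group (41 sums) and tested with edgeR 4.0.16 (TMM, quasi-likelihood, R 4.3.3), each comparison fitted on its own groups, with Benjamini-Hochberg adjustment over 14721 genes. The code was tested on simulated data. The same comparisons were repeated with DESeq2 1.42.0, with library size in place of TMM, without the limit on low values, with all 7 groups in one model, on sums of at least 2 cells, with limma 3.58.1 on mean log2(TPM + 1), within library pools, with embryos left out in turn and with the embryo as a replicate block. The pairing comes from sums of the same embryo, whose deviations from group means had a median correlation of 0.05 (7 ICM and TE pairs), 0.02 (3 LB pairs) and 0.07 (3 Sph pairs) against -0.01, -0.02 and -0.04 for sums of different embryos. Per-embryo figures used a pseudocount of 1. The named genes were all those called, and SLC1A5, SLC3A2, SLC7A7 and SLC7A9 in each comparison, and other transporters are described by level. Some single genes are counted but not reported here. The members and all lists were chosen with earlier results of these data known. Depth limits genes of few counts, and 1 M cell without an embryo in its identifier entered the levels per cell but no test.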

Additional observations from a re-analysis of the deposited data

Results flagged for a closer look

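Of 40 groups of 4 to 10 embryos examined for the 7 called transporters, 10 held an embryo whose log2(CPM + 1) lay far from the others by Dixon's criterion, where chance alone gives about 1 in 20. In 3 of the 10 (SLC16A6 in LB EPI, SLC1A5 in M and in ICM) all other embryos were at 0, so that any count meets the criterion and that rate does not apply. For SLC7A9 these were LB EPI embryo AO at 6.04 (nearest 0.32) and Sph EPI embryo C at 0.435, from 11 counts. SLC7A7 was at 3.1 in the TE embryo E6-ER, with the nearest at 8.69, and SLC3A1 was at 7.87 in LB HYPO embryo AL, a single cell, with the nearest at 9.46. SLC1A5 was at 1.41 in M embryo S (29 counts), at 0.189 in ICM embryo AA (2 counts) and at 2.38 in TE embryo AF (1 cell, 10 counts), where most other embryos of those groups had none. SLC7A4 was at 0 in M embryo V, with the nearest at 4.70, and at 1.55 in Sph EPI embryo C (60 counts). SLC16A6 was at 0.228 in LB EPI embryo AO, from 2 counts. The values of the SLC7A9 and SLC7A7 comparisons without AO and E6-ER are given with those genes.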

How the results depend on the processing

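The number of transporters called by edgeR moved with the settings. DESeq2 called 4 for ICM against TE, 13 at LB, 11 at Sph, 2 for M against TE, 11 for ICM against LB EPI, 5 for ICM against LB HYPO, 4 for LB EPI against Sph EPI, 2 for LB HYPO against Sph HYPO and 5 for the interaction, against 0, 4, 2, 0, 3, 2, 0, 0 and 0. One model over 7 groups gave 6 for ICM against TE, 1 at LB, 4 for M against TE and 9 for ICM against LB EPI, and limma gave 2 for ICM against TE, 5 at Sph, 1 for M against TE, 6 for ICM against LB EPI, 4 for ICM against LB HYPO and 1 for LB EPI against Sph EPI. Sums of at least 2 cells gave 2 for ICM against TE, 1 for M against TE and 1 for ICM against LB HYPO. The first pools gave 1 for ICM against TE and 1 for M against ICM, and the last pools 0 at LB, 1 for ICM against LB EPI, 0 for ICM against LB HYPO and 1 for LB HYPO against Sph HYPO. Without TMM 1 was called for LB EPI against Sph EPI and 1 for LB HYPO against Sph HYPO, and without the filter 1 for LB EPI against Sph EPI. The share of all genes called is given for the standard fit only, so the numbers here and below cannot be set against other genes. The cause of the changes between settings was not tested.

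As a replicate block, the embryo gave 1 for ICM against TE, 1 at LB and 3 at Sph. With embryos left out in turn the counts ran from 0 to 3 for ICM against TE, 2 to 6 at LB, 1 to 4 at Sph, 2 to 3 for M against ICM, 0 to 1 for M against TE, 2 to 3 for ICM against LB EPI, 1 to 3 for ICM against LB HYPO, and 0 to 1 for both LB against Sph comparisons. At LB the count was 2 without EPI embryo AP, at Sph it was 1 without the EPI or the HYPO sum of embryo C and 4 without EPI embryo F, and for ICM against LB HYPO it was 1 without ICM embryo AA or HYPO embryo AM.

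For single genes, 641 of 749 values over 38 results kept direction and side of the threshold, 56 lost the call, 27 gained one and 25 changed sign, all 25 in results without a call. For SLC3A2 at Sph (0.06) the value was -0.083 with DESeq2, -0.28 in the last pools and -0.18 to 0.42 with embryos left out, 3 of the values below 0. For SLC3A2 in ICM against LB EPI (0.05) it was -0.16 in the last pools and -0.15 to 0.21 with embryos left out. SLC1A5 in M against TE (-0.97) was 2.58 with sums of at least 2 cells and -4.91 to 2.75 with embryos left out, the last without TE embryo AF, and SLC7A9 there (-2.91) was 3.66 in the first pools. In ICM against LB HYPO, SLC7A7 (-0.11) was 0.017 without TMM, 0.046 with limma and -0.35 to 0.049 with embryos left out, and SLC7A9 (0.50) was -1.43 with limma and -0.27 (without ICM embryo AC) to 0.71 with embryos left out. SLC7A9 in LB EPI against Sph EPI (7.18) was -0.24 (without LB EPI embryo AO) to 8.72 with embryos left out, and in LB HYPO against Sph HYPO (-0.11) it was 0.0023 with limma, 0.012 and 0.13 in the first and last pools and -0.24 to 0.075 with embryos left out.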
